A study of Mus musculus with 79 samples.

Results

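Colony-stimulating factors are secreted cytokines that control the survival, proliferation and activation of myeloid cells. The 8 genes described here are 4 ligands (Csf1, Csf2, Csf3 and Il34) and 4 receptor chains (Csf1r, Csf2ra, Csf2rb and Csf3r). They were taken by symbol from the 23361 genes of the count tables, and all 8 were present in each table. Csf1 and Il34 both bind Csf1r, the tyrosine kinase receptor on which most tissue macrophages depend. Csf2 (GM-CSF) binds the alpha chain Csf2ra and signals through the beta chain Csf2rb, which also serves the Il3 and Il5 receptors, while Csf3 (G-CSF) acts through Csf3r, the receptor that drives neutrophil production. Injured nerve is known to take up large numbers of monocytes and macrophages, and the receptors of this family are found mainly on myeloid cells.

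The data were 79 RNA-seq libraries from 32 S100β-eGFP mice of both sexes, in which GFP is driven by the human S100β promoter and marks Schwann cells among other cells that use that promoter. In every mouse the freshly cut common peroneal nerve was grafted to the tibial stump. In the immediate group the tibial nerve was cut and repaired in the same operation, after a sham incision of skin and muscle 8 weeks before, and in the delayed group it had been cut and tied to the quadriceps 8 weeks earlier. Macrophages (F4/80, CD14, CD16/32 and CD11b positive) and Schwann cells (GFP positive and negative for all other markers) were sorted from the silicone conduit at day 5 and day 14 after repair, 1000 cells per library, and the whole distal stump was taken at day 5. After delayed repair there were 9 macrophage, 9 Schwann cell and 9 stump libraries at day 5, and 7 macrophage and 7 Schwann cell libraries at day 14. After immediate repair there were 8, 7 and 7 at day 5, and 8 and 8 at day 14. The ages of the mice are not given in the sources used here.

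Levels are CPM (each count divided by the library total and scaled to 1000000), and levels of different genes are set beside each other only as CPM per kilobase of exon. Totals ran from 14928745 to 28499407 counts in macrophages, from 11614940 to 30796823 in the Schwann cell sort and from 3898778 to 9212709 in the stump, and exact two-sided permutation tests of the totals between repair groups gave p from 0.065 to 0.655. A count of 3 corresponded to 0.105 to 0.201 CPM in macrophages, 0.0974 to 0.258 CPM in the Schwann cell sort and 0.326 to 0.769 CPM in the stump, counting error only. Replicates 1 to 4 of every group were male and the higher numbers female, so that sex cannot be told apart from anything else that followed the numbering. Stump libraries were made from rRNA-depleted RNA and sorted cells from amplified cDNA, and no level was tested between them.

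The sort labels were checked against marker genes. In the 32 macrophage libraries the 14 macrophage markers summed to 20001 to 41949 CPM. In the 31 libraries sorted as Schwann cells the defining gene S100b was low, with a median of 3.65 CPM (0 to 24.7) at day 5 and 9.88 CPM (0.903 to 49.5) at day 14. The 12 Schwann cell markers together had a median of 483 CPM at day 5 and 1106 CPM at day 14, against 731 and 693 CPM in the macrophage libraries. The 11 dendritic cell markers summed to 20474 to 43356 CPM in those libraries, against 1036 to 17839 CPM in macrophages, and Ccr7, the chemokine receptor of migrating dendritic cells, had a median of 7184 CPM at day 5. These libraries are therefore called the Schwann cell sort, by the gate that gave them. At day 14 after immediate repair 2 of them, replicates 3 and 5, held neutrophil markers at 20459 and 5675 CPM, where the other 6 held 6.41 to 35.8 CPM. Results that rest on these 2 libraries are given with and without them.

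Positions are given in the GRCm38 (mm10) build with GENCODE M21 models. Csf1 is at chr3:107741048-107760469 on the minus strand and Il34 at chr8:110741829-110805924 on the minus strand. Csf2 lies at chr11:54247271-54249667 (minus) and Csf3 at chr11:98701263-98703629 (plus). Of the receptor genes, Csf2ra is at chr19:61223957-61228429 (minus), Csf2rb at chr15:78325752-78353847 (plus) and Csf3r at chr4:126024550-126044440 (plus). Csf2rb has a close copy, Csf2rb2, at chr15:78282507-78305721 (minus), the beta chain that in mice serves only the Il3 receptor. Of the 4816 windows of 85 bases in the longest Csf2rb transcript, the length of the reads, 8.91% occurred unchanged in a Csf2rb2 transcript and 28.7% did so with at most 2 mismatches. Reads from such windows could have been counted for either gene, so the values of both are uncertain to that extent.

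Csf2 mRNA is a textbook target of rapid decay through AU-rich elements, repeats of ATTTA in the 3′ UTR that are bound by Zfp36 (tristetraprolin) and its relatives. Its element is shown because the ligands differ in this feature and the binding proteins were measured in the same libraries. The last 500 bases of the longest coding transcript were searched for the nonamer TTATTTATT, which 2.78% of 21877 genes hold there. Csf2 held 4 overlapping nonamers and 9 copies of the pentamer ATTTA. No nonamer was found in Csf1, Csf3 or Il34, which held 3, 1 and 1 pentamers. The Csf2 element lies at chr11:54247323-54247351 on the minus strand in the 3′ UTR, with capitals marking the run of nonamers:
Csf2: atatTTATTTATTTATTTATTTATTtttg

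Spi1 (PU.1), the myeloid factor of the ETS family, binds sites with the core GAGGAA, and the receptor promoters that hold this core are shown for this reason. RefSeq promoters on GRCm38.p6 (250 bases before to 50 after the start) were found for Csf1, Csf2, Csf2ra, Csf3r and Csf2rb2. GAGGAA or its reverse complement TTCCTC occurs in 28.3% of 32851 promoters of this length. Csf2ra had 2 adjacent copies starting 14 bases before the start (chr19:61228412-61228441, minus strand). Csf3r had 1 copy at 86 bases before (chr4:126024561-126024590, plus strand). Csf2rb2 had the reverse complement at 167 bases before (chr15:78305871-78305900, minus strand) and at 29 bases after the start (chr15:78305675-78305704). A match of these letters is a description and not a binding site. The motifs are in capitals in windows of 30 bases:
Csf2ra: cctgcagatGAGGAAGAGGAAgcgggagac
Csf3r: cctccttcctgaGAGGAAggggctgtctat
Csf2rb2, before: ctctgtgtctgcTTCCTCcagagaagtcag
Csf2rb2, after: ggcactggcaacTTCCTCaatctgctctct

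The order of the family differed between the sorts. In macrophages at day 5 the highest level per exon length was that of a ligand, Csf3, at 423 ± 349 CPM per kb (SD, n = 17), followed by the receptors Csf1r at 183 ± 48.0, Csf2ra at 72.7 ± 16.1, Csf2rb at 40.4 ± 8.29 and Csf3r at 37.7 ± 10.7. Csf3 and Csf1r did not differ beyond their SDs, nor did Csf2rb and Csf3r. Csf2 and Csf1 stood at 4.34 ± 4.22 and 3.91 ± 1.46 CPM per kb, and Il34 at 0.0413 ± 0.0991. At day 14 (n = 15) Csf1r led at 221 ± 35.2 CPM per kb, Csf2ra followed at 97.8 ± 14.4 and Csf3 came next at 70.9 ± 43.2. Macrophages thus held all 4 receptor chains at both days, with Csf3 as the only ligand within their range.

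In the Schwann cell sort the leading genes were the chains of the GM-CSF receptor. Csf2rb stood at 89.4 ± 21.8 CPM per kb at day 5 (n = 16) and 73.7 ± 23.8 at day 14 (n = 15), and Csf2ra at 48.0 ± 10.6 and 55.9 ± 16.2. Csf1 and Il34, the ligands of Csf1r, stood at 7.40 ± 3.16 and 3.84 ± 3.71 CPM per kb at day 5 and at 14.8 ± 9.36 and 8.41 ± 5.29 at day 14. From Csf1r downward, each gene overlapped within 1 SD with the one above it at both days. In the stump (n = 16) Csf1r led at 82.8 ± 25.8 CPM per kb, above Csf3r at 29.0 ± 13.3, Csf1 at 20.2 ± 6.64, Csf2rb at 18.5 ± 5.70, Csf2ra at 17.5 ± 6.46 and Il34 at 10.4 ± 6.16. Csf3 and Csf2 were near the detection limit there, at 1.45 ± 0.944 and 0.290 ± 0.231.

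**Figure D1:**
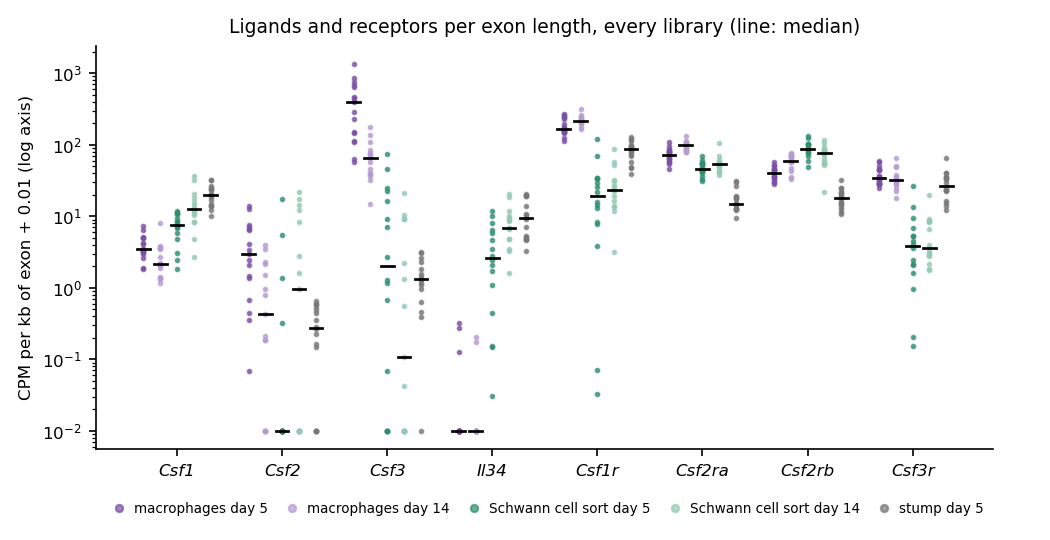
Level of each ligand and receptor per exon length in every library, as CPM per kb + 0.01 on a log axis, with the median of each set as a line (macrophages and Schwann cell sort at days 5 and 14, stump at day 5). Csf3 at day 5 and Csf1r are the highest points in macrophages, Csf2rb is highest in the Schwann cell sort, and most macrophage libraries sit at 0 for Il34.

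The largest contrasts were between the 2 sorts (edgeR, counts of 16 against 17 libraries at day 5 and 15 against 15 at day 14). At day 5, 3 of the 8 genes were higher in the Schwann cell sort and 4 were lower, and at day 14, 2 of 7 tested were higher and 4 lower. Il34 averaged under the filter of 5 CPM in macrophages and was tested only through the Schwann cell sort, so that its direction was fixed by the filter, and without it 2 of 7 were higher and 4 lower at day 5 and 1 of 6 higher and 4 lower at day 14. Over all genes 35.7% were higher and 29.8% lower at day 5, and 37.2% and 27.7% at day 14, so that a difference in itself was common here. Scaling by library totals alone moved the median of all genes by 0.25 at day 5 and 0.368 at day 14 on the log2 scale, and the share of called genes that were higher from 54.5% to 68.2% and from 57.3% to 76.7%. Same-numbered libraries of a repair group and day came from the same mouse, and with the mouse as a block each of these members kept its call.

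Among the ligands, Il34 had the largest fitted difference between the sorts, in a direction fixed by the filter. It was not counted at all in 27 of 32 macrophage libraries, and the other 5 held at most 0.623 CPM. In the Schwann cell sort it was found in every library, with a lowest, median and highest value of 0.271, 4.08 and 19.6 CPM after delayed and 0.0412, 6.89 and 23.4 CPM after immediate repair at day 5. At day 14 these values were 3.10, 12.8 and 39.7 CPM after delayed and 6.46, 17.2 and 36.7 CPM after immediate repair, so that all 15 libraries lay above all macrophage libraries. The fitted difference was 6.56 (SE 0.93) on the log2 scale at day 5 and 7.84 (SE 0.67) at day 14. It is given as a description and not as a test, since Il34 passed the filter only through the Schwann cell sort. The size of the difference rests on few macrophage reads, 27 in all at day 5 and 9 and 6 in the 2 groups of day 14. Fibroblast markers had medians of 1238 and 6309 CPM in the Schwann cell sort at days 5 and 14 and of 16.2 and 78.3 CPM in macrophages, and their part in the Il34 and Csf1 differences was not tested.

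Csf1, the other ligand of Csf1r, was also higher in the Schwann cell sort. At day 5 it averaged 39.1 ± 16.7 CPM there and 20.6 ± 7.73 CPM in macrophages, a difference of 0.66 (SE 0.21, adjusted p = 0.00581), with 13 of 16 libraries above the macrophage mean. At day 14 the values were 78.2 ± 49.4 and 14.5 ± 9.22 CPM, a 4.27-fold difference (log2 2.09, SE 0.29, adjusted p = 1.67e-07), with 14 of 15 libraries above. The ranges overlapped at both days.

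Csf3 went the other way. Every library of the Schwann cell sort was below the macrophage mean at day 5, 16 of 16, and at day 14, 15 of 15. The means were 18.3 ± 29.6 against 597 ± 493 CPM at day 5 (36.7-fold lower, log2 -5.20, SE 0.93, adjusted p = 1.06e-05) and 5.13 ± 8.79 against 100 ± 61.1 CPM at day 14 (29.1-fold lower, log2 -4.86, SE 0.85, adjusted p = 9.06e-06). Without the 2 neutrophil-rich libraries, the difference at day 14 was -5.34 (adjusted p = 4.36e-06). Within the Schwann cell sort the gene was uneven, from 0 to 106 CPM, and 10 of 31 libraries had no count.

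Csf2 was sparse in both sorts. In macrophages it was counted in all 17 libraries of day 5, between 0.0479 and 11.3 CPM, and in 11 of 15 at day 14, up to 3.21 CPM. In the Schwann cell sort it was absent from all 7 libraries of day 5 after immediate repair, which allows up to 0.0989 to 0.150 CPM per library. After delayed repair it was counted in 4 of 9, of which replicates 3 and 4 held 14.0 and 4.34 CPM. At day 14 it was counted in 4 of 7 libraries after delayed repair, at 6.62 to 17.6 CPM, and in 4 of 8 after immediate repair, up to 11.4 CPM. The difference between sorts at day 5 was -2.84 (SE 1.42, adjusted p = 0.0777), but -4.37 (adjusted p = 0.00272) without the mouse of delayed replicate 3, so that the call depended on 1 mouse. It depended on the fit as well: with all mice Csf2 was called by DESeq2 (-3.20, adjusted p = 0.00489), by limma-voom with quality weights (-4.68, adjusted p = 0.00215) and with the mouse as a block (-6.45, adjusted p = 3.72e-04). Between repair groups Csf2 reached the filter only in macrophages at day 5, where it was not called (-0.66, SE 0.68, adjusted p = 0.975).

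All 4 receptor chains were counted in all 63 libraries of sorted cells, but their balance differed. Csf1r, which lies at chr18:61100598-61132149 on the plus strand, was 10.6-fold lower in the Schwann cell sort at day 5 (156 ± 176 against 1057 ± 277 CPM, log2 -3.40, SE 0.54, adjusted p = 1.35e-06) and 10.2-fold lower at day 14 (168 ± 126 against 1277 ± 203 CPM, log2 -3.35, SE 0.28, adjusted p = 5.43e-12), with no overlap of the ranges at day 14. Csf3r was 8.83-fold lower at day 5 (20.01 ± 23.9 against 136 ± 38.6 CPM, adjusted p = 8.70e-08) and 7.94-fold lower at day 14 (20.7 ± 17.0 against 126 ± 44.0 CPM, adjusted p = 5.95e-10). The highest Csf3r value at day 14 was 70.7 CPM, in the neutrophil-rich replicate 3. Without replicates 3 and 5 the Csf3r difference was -3.21 in place of -2.99 on the log2 scale.

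Csf2ra differed less, by -0.83 (SE 0.11, 1.78-fold lower, adjusted p = 3.67e-08) at day 5 and by -1.16 (SE 0.12, 2.24-fold lower, adjusted p = 2.73e-10) at day 14. Csf2rb was the exception among the receptors: at day 5 it was higher in the Schwann cell sort, at 651 ± 159 against 294 ± 60.4 CPM (log2 0.88, SE 0.13, adjusted p = 5.90e-07), and all 16 libraries lay above the macrophage mean. At day 14 it stood at 536 ± 173 against 430 ± 99.8 CPM, a difference of -0.06 (SE 0.16, adjusted p = 0.756) after TMM scaling and 0.31 (adjusted p = 0.081) after scaling by library totals. Its copy Csf2rb2 was higher at day 5 (log2 0.48, SE 0.16, adjusted p = 0.00839) and lower at day 14 (log2 -0.68, SE 0.18, adjusted p = 0.00119). Csf2rb took a median of 82.4% to 85% of the reads of the pair in the 4 groups of the Schwann cell sort, 77.1% to 79.4% in those of macrophages and 60.9% to 64.2% in those of the stump.

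Csf1r in the Schwann cell sort is set beside the macrophage markers of the same libraries. At day 5 it was 0.132 CPM in immediate replicate 1 and 0.351 CPM in immediate replicate 3, whose 14 macrophage markers summed to 1259 and 271 CPM. It was 398 and 696 CPM in delayed replicates 7 and 9, whose markers summed to 7411 and 12732 CPM, the highest of that day. The 2 measures did not run in step in every library, since immediate replicate 1, with the lowest Csf1r, had the median marker sum of its group. The part of macrophage RNA in the Csf1r, Csf3r and Csf3 values of this sort was not tested.

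Other growth factor receptors and ligands were also compared between the sorts. Of the list of related ligands and receptors, 7 of 13 were tested at day 5 and 9 at day 14, but 3 and 5 of them averaged under 5 CPM in macrophages and passed the filter only through the Schwann cell sort, where they had to be higher. Of the other 4 at each day, 2 were higher and 1 lower at day 5, and 1 was higher and 3 lower at day 14. Over all genes 35.7% were higher and 29.8% lower at day 5, and 37.2% and 27.7% at day 14. Flt3, the receptor that sustains dendritic cells, averaged 656 CPM in the Schwann cell sort and 0.907 CPM in macrophages at day 5, and Kit, the stem cell factor receptor, 440 and 1.05 CPM. The proteoglycan Sdc1, which also binds Il34, was lower by -2.41 (SE 0.26, adjusted p = 5.33e-10). Ptprz1, another receptor of Il34, averaged 47.9 CPM in the Schwann cell sort at day 14 and 0.0357 CPM in macrophages. Flt3, Kit and Ptprz1 are among those set by the filter, and their levels are given as a description.

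Genes downstream of these receptors were called in both directions. Of the STAT5 targets and feedback genes 15 were tested at day 5 and 16 at day 14, and 4 at each day passed the filter only through the Schwann cell sort. Of the others, 7 of 11 were higher and 1 lower at day 5, and 8 of 12 higher and 3 lower at day 14. The named members with the smallest p at day 5 were Ccnd2, a cyclin (4.67, SE 0.21), Socs2, a feedback inhibitor that passed only through the Schwann cell sort (384 against 2.70 CPM), and Irf4, a transcription factor (3.76, SE 0.23). At day 14 the chemokine Ccl22 was 7.27 higher (SE 0.60, adjusted p = 4.69e-12). Of the receptor signalling genes 15 of 35 were higher and 10 lower at day 5, shares near those of all genes (35.7% and 29.8%), and 13 were higher and 17 lower at day 14 (37.2% and 27.7% of all genes). The 10 include Gab3 (5.02 CPM in macrophages and 1.86 CPM in the Schwann cell sort), which passed the filter only through macrophages, so that its direction was fixed. Pik3r1, Dok1 and Stat5a were higher at day 5 (3.18, 2.82 and 2.60), and Tyrobp, an adaptor of myeloid receptors, was lower at day 14 (-1.26, SE 0.11). Of the 13 myeloid transcription factors that averaged over 5 CPM in both sorts, 11 were lower at day 5 and 9 at day 14, among them Ets2 (-1.76 and -1.80) and Cebpb (-3.32 at day 14), while Irf8, a factor of dendritic cell development, was 2.79 higher at day 5 (SE 0.11).

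The distal stump was where members passed the test between delayed and immediate repair. Of 6 genes tested there, 4 were higher after delayed repair (Csf1, Csf1r, Csf2ra and Csf2rb) and 1 was lower (Il34), beside 12.8% higher and 13.5% lower among the 12229 genes tested. Csf3r lay just outside the threshold, and Csf2 (at most 0.513 CPM) and Csf3 (at most 4.46 CPM) were too low to test. In whole tissue, fewer cells of a type and less RNA per cell cannot be told apart.

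Of the 2 ligands tested, Il34 fell. After immediate repair its lowest, median and highest values were 18.2, 37.3 and 40.2 CPM, and after delayed repair 6.34, 10.1 and 20.9 CPM. All 9 delayed libraries were below the immediate mean, and the ranges overlapped through the 2 lowest immediate and the 2 highest delayed libraries. The difference was -1.37 on the log2 scale (SE 0.23, 2.59-fold lower, adjusted p = 4.29e-04), and it was called with each of the 16 libraries left out in turn (-1.52 to -1.28). Within males it was -1.77 (adjusted p = 0.00305) and within females -1.05 (adjusted p = 0.114).

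Schwann cell markers moved in the same direction as Il34. The 12 markers summed to 1569 to 3620 CPM after immediate and 189 to 1031 CPM after delayed repair, and 10 of 11 tested were lower. S100b, which encodes a calcium-binding protein of Schwann cells, fell by 4.86 (SE 0.42, adjusted p = 8.90e-07). Their part in the Il34 difference was not tested. Of the mast cell list 4 of 5 genes tested were lower, where 13.5% of all genes were.

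**Figure D2:**
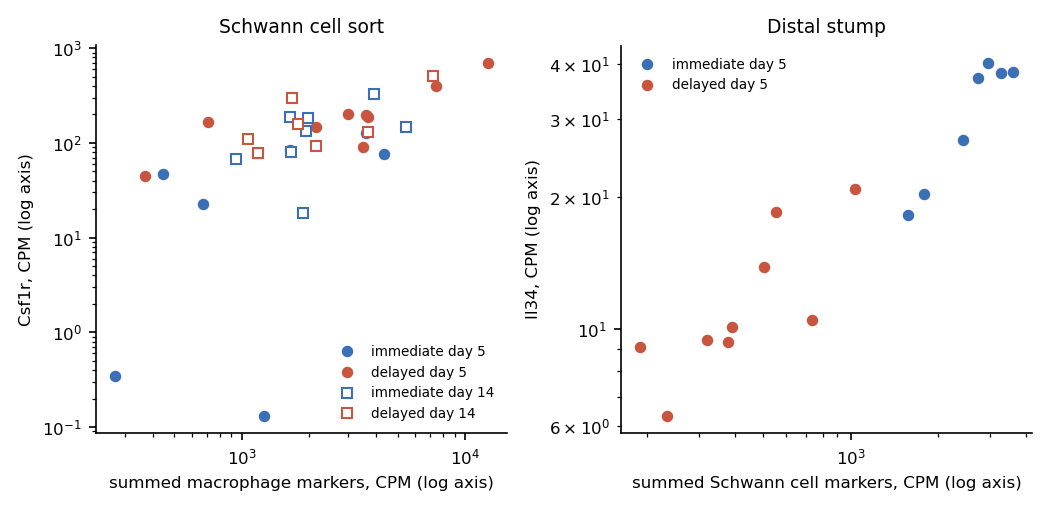
Left, Csf1r against the summed macrophage markers in the libraries of the Schwann cell sort, and right, Il34 against the summed Schwann cell markers in the stump, both in CPM on log axes, 1 point per library. In the stump the delayed libraries sit at 6.34 to 20.9 CPM of Il34 with marker sums of 189 to 1031 CPM, and the immediate ones at 18.2 to 40.2 CPM with sums of 1569 to 3620 CPM.

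Csf1 rose in the stump after delayed repair, but the call rested on single libraries. It ran from 53.7 through a median of 77.6 to 140 CPM after immediate and from 72.8 through 125 to 171 CPM after delayed repair, with 8 of 9 delayed libraries above the immediate mean. The difference was 0.56 (SE 0.20, 1.47-fold, adjusted p = 0.0442). It was called in 4 of 16 fits with 1 library left out. Without any one of delayed replicates 2, 3, 4, 6, 8 and 9 or immediate replicates 1, 2, 3, 6, 7 and 8, the adjusted p was 0.0518 to 0.109, and without the filter on low genes it was 0.083.

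Csf1r, Csf2ra and Csf2rb rose by a similar size. For Csf1r the values were 225, 327 and 546 CPM (lowest, median and highest) after immediate and 423, 558 and 730 CPM after delayed repair, a difference of 0.64 (SE 0.19, 1.56-fold, adjusted p = 0.0168). For Csf2ra they were 27.2, 37.5 and 50.1 CPM and 36.5, 53.2 and 90.3 CPM, also 0.64 (SE 0.18, 1.56-fold, adjusted p = 0.0165). Csf2rb showed the smallest p among the receptors, with 79.6, 98.5 and 127 CPM after immediate and 108, 158 and 232 CPM after delayed repair (0.70, SE 0.13, 1.62-fold, adjusted p = 0.00108). All 9 delayed libraries were above the immediate mean for Csf1r and Csf2rb and 8 of 9 for Csf2ra, and the ranges of the 2 groups overlapped for each. These 3 calls held with each library left out. The copy Csf2rb2 rose likewise (0.72, SE 0.18, adjusted p = 0.00807). In the edgeR fit with the replicate number as a block, although the numbers pair no mice, Csf1r had an adjusted p of 0.0828.

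Csf3r ran from 44.9 through 80.3 to 128 CPM after immediate and from 58.6 through 121 to 233 CPM after delayed repair. Its difference of 0.68 (SE 0.26) had an adjusted p of 0.058, and an adjusted p of 0.0253 to 0.0496 in the 5 fits without delayed replicate 1, 5 or 8 or immediate replicate 4 or 8. DESeq2 gave an adjusted p of 0.0343, the fit with sex as a covariate 0.0456 and limma-voom with quality weights 0.0215.

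Within sexes the directions in the stump were the same for these 6 genes, but fewer passed. In males 3 were called: Il34, Csf2ra (0.93, adjusted p = 0.0273) and Csf2rb (0.83, adjusted p = 0.0123). In females only Csf1 was called (0.58, adjusted p = 0.0452), with 8 libraries in each sex and 1298 and 594 calls over all genes in place of 3221.

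Beside these values, the macrophage markers summed to a median of 5372 CPM (3935 to 6671) after delayed and 3209 CPM (1771 to 6452) after immediate repair, with 2 of 14 called higher, a share near the 12.8% of all genes. Dendritic cell markers had medians of 1086 and 688 CPM, with 4 of 10 tested higher, and neutrophil markers 147 and 75.6 CPM, with none of 3 tested called. Relative to 1000 CPM of macrophage markers, the median of Csf1r was 108 after delayed and 91.0 after immediate repair, of Csf2rb 32.1 and 27.3, of Csf2ra 12.97 and 8.47, of Csf3r 21.9 and 17.2, of Csf1 24.8 and 21.7, and of Il34 1.95 and 11.9. For each of these genes the ranges of the 2 repair groups overlapped. After delayed and immediate repair they were 89.6 to 130 and 82.6 to 127 for Csf1r, and 6.38 to 22.3 and 6.66 to 28.3 for Csf2ra. These relative values and the part of cell numbers in the receptor values were not tested.

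**Figure D3:**
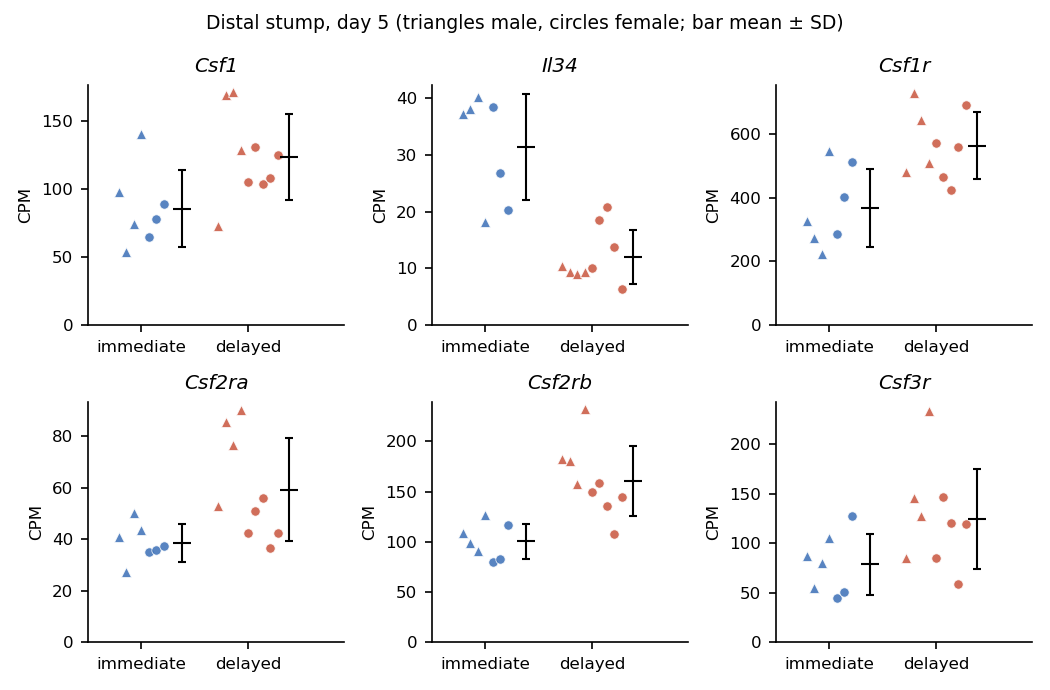
CPM of the 6 tested genes in each distal stump library at day 5 after immediate (blue, n = 7) and delayed (red, n = 9) repair, with triangles for males, circles for females and the mean ± SD beside each group. Il34 is lower after delayed repair (12.0 ± 4.79 against 31.4 ± 9.36 CPM), and the other 5 have higher means with overlapping points.

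Other genes of the pathway mostly rose in the stump where they were called. Among related ligands and receptors 5 of 9 tested rose and none fell after delayed repair, of which Flt3l averaged under 5 CPM after immediate repair (median log2 of the other 8 0.374, against 0.0186 over all genes), including Kit (0.81, SE 0.20, adjusted p = 0.00581) and Pdgfrb, a receptor of mural cells (0.41, SE 0.10, adjusted p = 0.00735). Of the receptor signalling genes 16 of 35 rose and 3 fell, where 12.8% and 13.5% of all genes did (median 0.48). Jak2, the kinase of the Csf2 and Csf3 receptors, rose by 0.61 (SE 0.12, adjusted p = 0.00131), whereas Mapk3 (-0.85, SE 0.13) and Ptpn11 (-0.42, SE 0.07) fell.

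Of the STAT5 targets 2 of 13 were higher and 3 lower, where 12.8% and 13.5% of all genes were. Bcl2, which protects against cell death, fell by 1.55 (SE 0.14, adjusted p = 1.03e-06) and Ccnd1, a cyclin, by 1.91 (SE 0.22, adjusted p = 1.24e-05), while Socs2 rose by 0.73 (SE 0.10, adjusted p = 8.23e-05). Of the myeloid transcription factors 6 of 15 rose and none fell, among them Runx1 (0.68, SE 0.12), Fli1 (0.59, SE 0.16) and Ets2 (0.52, SE 0.16). The decay factors Zfp36l1 (0.72, SE 0.12) and Zfp36l2 (0.51, SE 0.12) rose, the 2 called of 9, a count no larger than the share of all genes called in either direction gives. Of 6 shedding and turnover genes Cblb (0.62, SE 0.11) and Rhbdf2 (0.43, SE 0.12) were higher, and 2 were lower, including the protease inhibitor Timp3 (-1.34, SE 0.26, adjusted p = 0.00118).

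In macrophages no member passed the main edgeR test between delayed and immediate repair. At day 5, 3 of 8409 genes did (0.0357%) and at day 14 none of 8589 (0%), where 435 and 190 had an unadjusted p under 0.05 and DESeq2 called 17 and 0. Csf3 had the largest difference of the 7 members tested at day 5, -1.20 (SE 0.53, adjusted p = 0.923), from 160, 740 and 1910 CPM (lowest, median and highest) after immediate to 82.2, 215 and 978 CPM after delayed repair. It was called by 1 of 7 alternatives, edgeR with the replicate number as a block (-1.16, adjusted p = 0.00165), although the numbers pair no mice. At day 14 the Csf3 values overlapped nearly fully, 45.1 to 252 CPM after immediate and 21.3 to 194 CPM after delayed repair (0.12, SE 0.42, adjusted p = 0.9999). The interaction of repair and day was 1.32 (SE 0.73, adjusted p = 0.9999), and over all genes 2 of 8949 were called (0.0223%), with 323 at an unadjusted p under 0.05 and 9 by DESeq2.

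The spread of Csf3 at day 5 followed the sex of the mice, and this comparison was added after its values were seen. After immediate repair the 4 males lay at 900 to 1910 CPM and the 4 females at 160 to 579 CPM. After delayed repair the 4 males lay at 411 to 978 CPM and the 5 females at 82.2 to 215 CPM, so that within each repair group the sexes did not overlap. In a fit with repair as a covariate Csf3 was 4.15-fold lower in females (264 ± 189 CPM, n = 9, against 972 ± 459 CPM, n = 8; log2 -2.05, SE 0.29, adjusted p = 9.57e-05), and it was called in 17 of 17 fits with 1 library left out. Over all genes 13.8% were higher and 11.3% lower in females in that comparison. Csf2rb was 1.40-fold lower (-0.48, SE 0.11, adjusted p = 0.00373) and Csf2rb2 too (-0.49, SE 0.16, adjusted p = 0.03), while Csf1r had 0.34 (SE 0.13, adjusted p = 0.0599).

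Some marker lists differed between the sexes in these libraries and others hardly did. The 5 monocyte markers summed to 41.8 to 114 CPM in males and 111 to 946 CPM in females, and the dendritic cell markers to medians of 1912 and 3080 CPM. The T cell markers had medians of 264 and 153 CPM, and the B cell markers summed to 0.891 to 3.61 CPM in males and 4.43 to 8.98 CPM in females. Medians of the macrophage markers were 29136 and 27958 CPM and of the neutrophil markers 69.7 and 68.2 CPM. Sex, the numbering of the replicates and any step that followed it cannot be told apart, and the part of monocytes in the Csf3 difference was not tested.

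At day 14 the difference between the sexes in Csf3 was -0.36 (SE 0.43, adjusted p = 0.9995), with 110 ± 76.3 CPM in males and 88.8 ± 40.3 CPM in females. The interaction of sex and day for Csf3 was 1.70 (SE 0.53, adjusted p = 0.0825), where 0.726% of genes were called higher and 0.793% lower. DESeq2 gave an adjusted p of 0.0454 and limma-voom with quality weights 0.00868. Within males the repair difference in Csf3 at day 5 was -0.97 (adjusted p = 0.724) and within females -1.59 (adjusted p = 0.79).

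**Figure D4:**
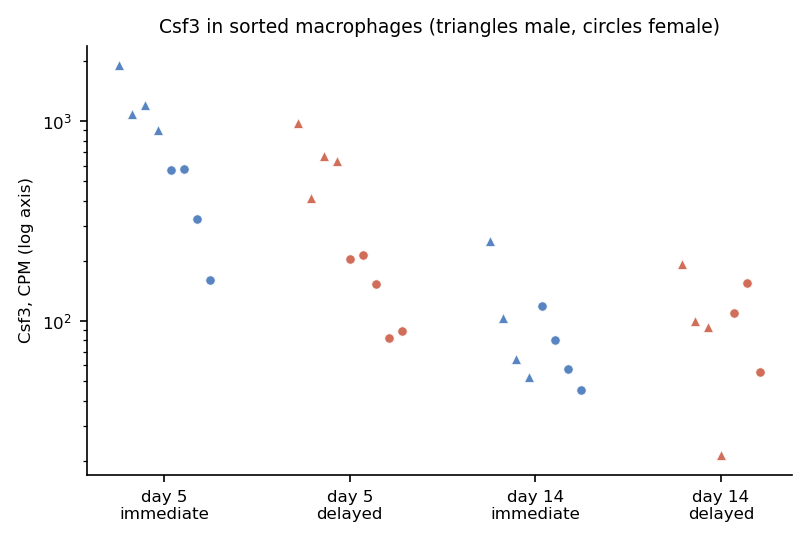
Csf3 in each macrophage library in CPM on a log axis, by day and repair group, with triangles for males and circles for females. At day 5 the males (411 to 1910 CPM) lie above the females of their own repair group (82.2 to 579 CPM overall), and at day 14 all libraries lie at 21.3 to 252 CPM.

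Csf3 fell with time in macrophages after immediate repair. After delayed repair its fall was called, but the call depended on single libraries and on the fit. After immediate repair Csf3 fell 9.93-fold from day 5 (840 ± 561 CPM, n = 8) to day 14 (96.8 ± 67.7 CPM, n = 8), by -3.31 on the log2 scale (SE 0.48, adjusted p = 1.98e-04), and Csf1 fell 1.96-fold (19.8 ± 3.72 to 11.5 ± 5.26 CPM; -0.97, SE 0.22, adjusted p = 0.00757). Csf2ra rose 1.34-fold, from 187 ± 37.8 to 280 ± 34.6 CPM (0.42, SE 0.12, adjusted p = 0.0222). Over all 8507 genes 5.33% rose and 6.01% fell, and 3 of 6 members tested were called. These 3 calls held in all 16 fits with 1 library left out. All 8 libraries of day 14 were below the day 5 mean for Csf3, 7 of 8 for Csf1, and all 8 were above it for Csf2ra. Scaling by library totals shifted the median of all genes by 0.162 and the share of called genes that rose from 47% to 81.1%, and the same 3 members were called with it.

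After delayed repair Csf3 fell 4.01-fold, from 381 ± 313 CPM (n = 9) to 104 ± 57.7 CPM (n = 7; -2.003, SE 0.56, adjusted p = 0.0379), and Csf2rb rose 1.53-fold, from 277 ± 44.3 to 448 ± 120 CPM (0.62, SE 0.17, adjusted p = 0.0323), with Csf2rb2 (0.82, SE 0.20, adjusted p = 0.0177). Over all 8529 genes 3.28% rose and 3.13% fell. With library totals 64.1% in place of 51.2% of called genes rose. Csf3 and Csf2rb were each called in 6 of 16 fits with 1 library left out, and both together only without day 5 replicate 5 or 8. With all libraries, limma-voom with quality weights gave Csf3 an adjusted p of 0.0635, and edgeR without a filter gave Csf2rb one of 0.061. Csf3 had an adjusted p of 0.0565 to 0.0715 without day 14 replicate 2, 3, 4, 6, 7 or 8 or day 5 replicate 1, 2, 3 or 4, and Csf2rb one of 0.051 to 0.0794 without day 14 replicate 1, 2, 6, 7 or 8 or day 5 replicate 2, 3, 6, 7 or 9.

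Within sexes the fall of Csf3 after immediate repair was called in both, -3.64 in males (adjusted p = 0.00212) and -2.58 in females (adjusted p = 0.0187). After delayed repair it was -2.83 in males (adjusted p = 0.0306) and -0.49 in females (adjusted p = 0.507). Csf2rb showed the opposite, 0.32 in males (adjusted p = 0.499) and 0.95 in females (adjusted p = 0.0118). Csf1 and Csf2ra after immediate repair passed in males (-1.31 and 0.64) and not in females (-0.65, adjusted p = 0.408, and 0.21, adjusted p = 0.593). The differences between the sexes in these changes were tested only by the interaction over both repair groups, in which edgeR called no member and DESeq2 and limma-voom called Csf3.

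Marker lists also moved between the days in macrophages. The dendritic cell markers summed to 1036 to 4708 CPM at day 5 and 6857 to 17839 CPM at day 14, with no overlap. The neutrophil markers had medians of 68.2 and 20.7 CPM at the 2 days, and the macrophage markers of 28552 and 32990 CPM. Their part in the changes of Csf3, Csf1, Csf2ra and Csf2rb was not tested. Csf1r and Csf3r had no called change with time in either repair group, with log2 differences of 0.15 and 0.00 after immediate and 0.21 and -0.42 after delayed repair.

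Among other genes of the pathway, Kitl, the ligand of Kit, rose in macrophages after both repairs (1.84, SE 0.26, adjusted p = 1.31e-04, and 1.69, SE 0.36, adjusted p = 0.00747). It passed the filter only through day 14, with 1.75 and 2.53 CPM at day 5 and 7.05 and 8.52 CPM at day 14, so that its direction was fixed by the filter. Src, a kinase that binds activated Csf1r, rose (1.31, SE 0.25, and 2.41, SE 0.35). It was the 1 of 35 signalling genes called after immediate repair, below the share of all genes (5.33% higher and 6.01% lower), and with Cbl (0.51, SE 0.12) 1 of 2 called after delayed repair (3.28% and 3.13%). Cish, a STAT5-induced inhibitor of cytokine receptors, rose by 1.07 (SE 0.24) and 1.51 (SE 0.32). Zfp36, which binds the AU-rich element printed for Csf2, fell by 0.58 (SE 0.12, adjusted p = 0.00364) and 0.49 (SE 0.11, adjusted p = 0.00713).

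Of the STAT5 targets 2 of 11 were higher and 3 lower after immediate repair (5.33% and 6.01% of all genes), and 2 higher and 1 lower after delayed repair (3.28% and 3.13%). After delayed repair Irf4, 1 of the 2 higher, passed the filter only through day 14, which fixed its direction. Osm, a cytokine induced through STAT5, fell by 1.29 after immediate repair (SE 0.16, adjusted p = 3.83e-05). It was also 1 of the 3 genes called between repair groups at day 5, where it was lower after delayed repair (-0.89, SE 0.16, adjusted p = 0.0384), and its interaction of repair and day was 1.27 (SE 0.24, adjusted p = 0.0328). With scaling by library totals 0 genes were called in that interaction, Osm included. Socs1 fell (-0.82, SE 0.20, and -0.79, SE 0.14) and Irf4 rose (1.24, SE 0.39, and 1.44, SE 0.28) after immediate and delayed repair, the latter from 4.67 CPM at day 5, under the filter. Of 15 myeloid transcription factors, Cebpd rose (0.87, SE 0.17) and Ets2 (-0.67, SE 0.11) and Runx1 (-0.44, SE 0.11) fell after immediate repair, and none was called after delayed repair.

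In the Schwann cell sort edgeR called no member between the days or the repair groups. Between repair groups 0 of 9604 genes were called at day 5 (0%) and 0 of 10226 at day 14 (0%), where 505 and 373 had an unadjusted p under 0.05 and DESeq2 called 14 and 3. Csf1r had the smallest unadjusted p of the members at day 5 (adjusted p = 0.884), with 0.132, 47.4 and 127 CPM (lowest, median and highest) after immediate and 44.4, 189 and 696 CPM after delayed repair (2.24, SE 0.89). Its macrophage marker sums had medians of 1259 and 3497 CPM in the same groups. Csf2rb followed, with 550 ± 132 and 729 ± 134 CPM (0.40, SE 0.16, adjusted p = 0.909), and all 9 delayed libraries lay above the immediate mean. The interaction of repair and day called 0 of 10923 genes (0%), with 524 at an unadjusted p under 0.05 and 9 by DESeq2, which called Csf2 among them against the group in which it had no count.

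Between the days, 0.719% of 10016 genes rose and 3.1% fell after immediate repair and 3.34% of 9961 rose and 4.75% fell after delayed repair. Scaling by library totals moved the medians of all genes by 0.178 and 0.196 and the shares of called genes that rose from 18.8% to 42.9% and from 41.3% to 70.8%. Csf1 after delayed repair came closest, with 9.67, 39.4 and 59.3 CPM at day 5 and 43.3, 69.8 and 173 CPM at day 14 (1.001, SE 0.32, adjusted p = 0.0612), and all 7 libraries of day 14 were above the day 5 mean. DESeq2 gave an adjusted p of 0.0209 and library totals 0.0369. Without day 14 replicate 3 Csf1 (1.09, adjusted p = 0.0417) and Csf2rb (-0.63, adjusted p = 0.0329, against -0.48 and 0.131 with all libraries) both passed.

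Il34 stood at 6.39 ± 6.36 and 15.5 ± 12.4 CPM at days 5 and 14 after delayed repair (1.11, SE 0.66, adjusted p = 0.299) and at 8.98 ± 8.57 and 17.3 ± 9.08 CPM after immediate repair (0.85, SE 0.76, adjusted p = 0.616). Schwann cell markers had medians of 483 CPM at day 5 and 1106 CPM at day 14 in these libraries. Without the 2 neutrophil-rich libraries edgeR called no member in the comparisons that hold them, between repair groups at day 14 and between the days after immediate repair.

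**Figure D5:**
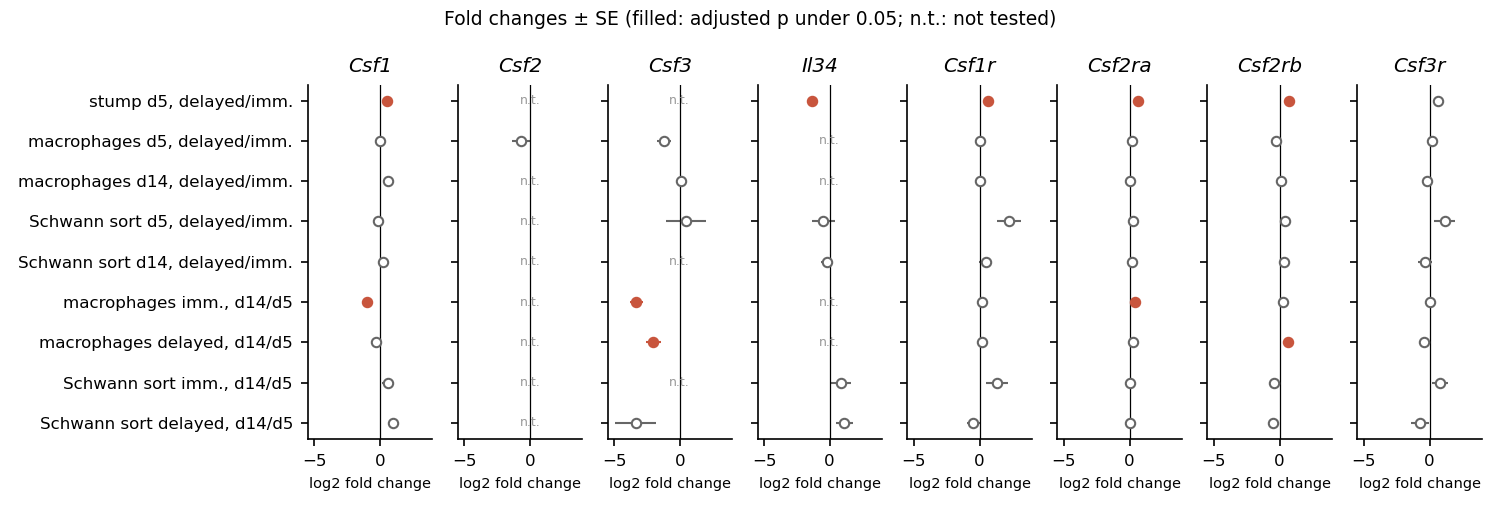
Log2 fold change ± SE of each ligand and receptor in the 5 comparisons of repair groups and the 4 comparisons of days, with filled points for an edgeR adjusted p under 0.05 and n.t. for genes too low to test. Filled points lie in the stump (Il34 at -1.37, 4 others at 0.56 to 0.70) and in macrophages between the days (Csf3 at -3.31 and -2.003, Csf1 at -0.97, Csf2ra at 0.42, Csf2rb at 0.62).

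Other genes of the pathway did change with time in the Schwann cell sort. Timp3 rose after delayed repair (2.98, SE 0.68). Ptprz1 averaged 0.890 CPM at day 5 and 41.7 CPM at day 14 after immediate repair and 2.98 and 54.9 CPM after delayed repair, and Kitl 4.93 and 40.6 CPM after delayed repair. Both were called, but passed the filter only through day 14, which fixed their direction. Flt3 fell after delayed repair (-0.87, SE 0.20, adjusted p = 0.0193). Of the STAT5 targets 4 of 16 fell after immediate and 3 of 16 after delayed repair, where 3.1% and 4.75% of all genes did, among them Osm (-1.59, SE 0.24, and -1.41, SE 0.34), Bhlhe40 and Mcl1, which protects against cell death (-0.79, SE 0.16, and -0.60, SE 0.15). Zfp36 fell in both (-0.81, SE 0.17, and -0.65, SE 0.16), as did Irf8 (-1.25, SE 0.26, and -1.11, SE 0.20) and the ubiquitin ligase Cblb (-1.29, SE 0.23, and -0.82, SE 0.21).

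The genes whose levels followed each member most closely within a library type were listed by Pearson's r of log2(CPM + 1) after subtraction of group means, as a description, since libraries share depth, cell composition and sex. In the 16 stump libraries Csf1r ran with Unc93b1 (0.983) and the macrophage genes Mrc1 (0.964) and Pltp (0.958), Csf3r with Mxd1 (0.961), Trib1 (0.938) and Pstpip1 (0.911), and Il34 with Utrn (0.942), Syne2 (0.934) and Fam19a5 (0.921). In the 32 macrophage libraries Csf3 ran with Ndfip2 (0.955), 0610031J06Rik (0.953) and Tes (0.933), and Csf2rb with its copy Csf2rb2 (0.882). Csf1 had no such close partner in macrophages, where the highest r was 0.647, with Cks2. In the 31 libraries of the Schwann cell sort Il34 ran with the extracellular genes Slit2 (0.817) and Col18a1 (0.807) and with Bhlhe22 (0.792), Csf2ra with Mcl1 (0.761), and Csf3 with F7 (0.85) and the myeloid genes Lyz1 (0.795) and Ms4a7 (0.785).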

How the data were processed

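Macrophages, the Schwann cell sort and distal stump were profiled in 79 libraries. Per the study's methods, the authors trimmed single-end reads of 85 bases with cutadapt (1.8) and aligned them with TopHat2 (2.1.1) to mm10 with the UCSC genes (Cufflinks 2.2.1 and Cuffnorm are also listed). The deposited files hold estimated counts per gene, not normalised; 0.951% to 1.18% of values were not whole and were rounded. The program that wrote them is not given in the sources used here.

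Groups came from the sample labels. The edgeR 4.0.16 quasi-likelihood fit (R 4.3.3, TMM size factors) took genes that reached 5 CPM in 6 or more animals of the groups compared. A call is a p under 0.05 after Benjamini-Hochberg adjustment over those genes. Fits by repair or day had no covariate. Between the sorts repair was a covariate, and libraries of the same mouse were not paired except under the mouse block. Repair groups and days were compared between different mice, and p-values measure the spread between them. An interaction is the change of the delayed-to-immediate difference from day 5 to day 14. The study used cuffdiff, which needs aligned reads. Standard errors were derived from the fold change and its F statistic. The fits were tested on simulated data. Alternatives were DESeq2 1.42.0, scaling by library totals, edgeR's filterByExpr, no filter, sex as a covariate, a replicate block, limma-voom (limma 3.58.1) with quality weights, Csf2rb and Csf2rb2 counts added together, and each replicate left out. Fits by sex, and without 2 libraries, were added after seeing the data. In the 9 pairs of groups compared by repair or day, same-numbered libraries shared only a number, whereas those of both sorts came from the same mouse by the labels (r of their deviations 0.0198 to 0.323). The members and gene lists were chosen with earlier results of these data known. Genes named beside the members were up to 3 called genes with the smallest p per list, and the 3 most alike by r. Means ± SD are over libraries, in CPM.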

Additional observations from a re-analysis of the deposited data

Results flagged for a closer look

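Dixon's test was run on 78 combinations of a member and a group, on log2(CPM + 1), and 6 of them (7.69%) held a library that stood far from the others. Chance gives about 1 in 20, but the share cannot be set against it. Of the 6, 2 were Il34 in macrophages at day 14, where the lone library with a count is flagged whatever its level. In the Schwann cell sort at day 14 after immediate repair, replicate 1 held 11.4 CPM of Csf2, with the next at 2.26 CPM, and replicate 5 held 159 CPM of Csf2rb, with the next at 380 CPM. Replicate 5 is also 1 of the 2 libraries with high neutrophil markers. In the same sort after delayed repair, replicate 8 held 13 CPM of Csf3, with the next at 1.85 CPM. Csf3 was at 0 in replicate 8 of the delayed stump, with the next lowest at 1.33 CPM. In macrophages at day 14 Il34 was at 0 except in delayed replicate 4 (0.322 CPM) and immediate replicate 5 (0.381 CPM). No member moved one way in every library at day 5 and the other way at day 14 in the 16 pairs checked.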

How the results depend on the processing

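Of the values given for single members, 788 kept their direction and their side of the threshold under an alternative, 21 lost and 15 gained a call, and 53 changed sign, each of them uncalled on both sides. Of the counts of calls, 224 stayed within 1.5 times and 52 moved. Counts were few for Csf2 in the stump and in many sorted libraries, for Csf3 in the stump and for Il34 in macrophages, and most of these were too low to test between repair groups or days. The cause of the changes listed was not tested. All values of single members are log2 differences, delayed against immediate unless days are named.

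DESeq2 called 17 genes in macrophages at day 5 between repair groups (3 with edgeR), and 14 and 3 in the Schwann cell sort at days 5 and 14 (0 and 0). It called 891 genes in macrophages between the days after delayed repair (547), 950 and 1514 in the Schwann cell sort after immediate and delayed repair (382 and 806), with 1 member (Csf1) in the latter, and 9 and 9 in the interactions of repair and day (2 and 0), with 1 member (Csf2) in the Schwann cell sort. Csf3r between the days in macrophages after immediate repair was -0.0070 with DESeq2, -0.015 with filterByExpr and -0.015 without a filter. Csf2ra in the interaction in the Schwann cell sort was 0.0033 with DESeq2.

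Scaling by library totals gave 1484 called genes in macrophages between the days after immediate repair (964), 0 in the macrophage interaction and 1 member (Csf1) in the Schwann cell sort between the days after delayed repair. With it, Csf1 and Csf1r in macrophages at day 5 were 0.11 and 0.080, Csf2rb between sorts at day 14 was 0.31, and the interactions of Csf1r in macrophages and Csf2ra in the Schwann cell sort were -0.036 and 0.0076. Without a filter 1 member was called in macrophages between the days after delayed repair. With sex as a covariate 8 genes were called in macrophages and 1 in the Schwann cell sort at day 5, Csf3 in the latter was -0.0086, and the Csf2 interaction in macrophages was 0.31.

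limma-voom called 1020 genes and 1 member in macrophages between the days after delayed repair, 612 genes in the Schwann cell sort after immediate repair and 4 in the macrophage interaction. It gave 0.051 for Csf1r in macrophages at day 5, -0.018 for Csf2ra at day 14, -0.11 for Csf1r in the Schwann cell sort at day 14 and -0.058 for Csf2ra there between the days after immediate repair. Its interactions were 2.38 for Csf2 and -0.046 for Csf1r in macrophages, and 0.38 for Csf2, -0.33 for Il34, 0.14 for Csf2ra and 0.14 for Csf2rb in the Schwann cell sort.

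The fit with the replicate number as a block was run although the numbers pair no mice between repair groups or days: in the 9 comparisons, the number of same-numbered pairs with r over 0.1 was 1 of 7 to 7 of 8, and never did every library correlate best with its own number. The block gave 12 called genes and 1 member in macrophages at day 5 (Csf3, -1.16, adjusted p = 0.00165), 3 members in the stump (Il34, Csf2ra and Csf2rb, whereas Csf1 and Csf1r had an adjusted p of 0.125 and 0.0828), 0 members in macrophages between the days after delayed repair, and 197 and 241 genes in the Schwann cell sort after immediate and delayed repair. Under the block Csf2ra in macrophages at day 14 was -0.013, Il34 and Csf3r in the Schwann cell sort at day 5 were 0.32 and -0.13, Csf3r in macrophages between the days after immediate repair was -0.070, Csf2ra and Csf3r in the Schwann cell sort after delayed repair were -0.0041 and 0.049, and the interactions were 0.45 for Csf2 in macrophages and -0.069 for Il34 in the Schwann cell sort. Between the sorts, where the block is the mouse, Csf2 at day 5 was called as well (-6.45).

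With each library left out in turn, genes called in macrophages at day 5 were as low as 1, those in the Schwann cell sort at day 5 as high as 1, and those in that sort between the days 222 to 638 after immediate and 359 to 1175 after delayed repair, with up to 2 members. In macrophages between the days after delayed repair 0 members were called at the lowest. Ranges that crossed 0 were, in macrophages, -0.15 to 0.081 for Csf1 and -0.081 to 0.081 for Csf1r at day 5, -0.13 to 0.50 for Csf3, -0.043 to 0.10 for Csf1r and -0.044 to 0.058 for Csf2ra at day 14, and -0.17 to 0.089 for Csf3r between the days after immediate repair. In the Schwann cell sort they were -0.28 to 0.037 for Csf1 and -0.54 to 1.79 for Csf3 at day 5, -0.64 to 0.033 for Il34 and -0.50 to 0.21 for Csf3r at day 14, and -0.034 to 0.16 and -0.13 to 0.15 for Csf2ra between the days after immediate and delayed repair. Between the sorts at day 14 Csf2rb reached 0.013.

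Chosen after seeing the data were the fits by sex. Males alone gave 1 called gene in macrophages at day 5, 1298 genes and 3 members in the stump, and 565 and 174 genes in macrophages between the days after immediate and delayed repair, with 1 member in the latter. Females alone gave 0 genes in macrophages at day 5, 594 genes and 1 member in the stump, 126 genes and 1 member in macrophages after immediate repair and 1 member after delayed repair. Signs changed in females for Csf1 (0.39) and Csf1r (0.0049) in macrophages at day 5, for Csf1r (-0.030) and Csf3r (-0.036) between the days after immediate repair and for Csf1r (-0.025) after delayed repair. They changed in males for Csf3 (-0.17), Csf2ra (-0.087) and Csf2rb (-0.20) in macrophages at day 14.

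Also added were the fits without the 2 neutrophil-rich libraries, in which Csf3r between repair groups at day 14 was 0.097, Csf2ra between the days after immediate repair -0.012 and its interaction 0.085. For females against males at day 5, scaling by library totals called 4 members in place of 2. The interaction of sex and day gave 460 genes and 1 member (Csf3) with DESeq2, 719 genes and 1 member with limma-voom, 52 with filterByExpr and 36 without a filter, against 136.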
